A study of Mus musculus with 5 samples.

Results

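The genes described here are 10 chaperones and folding enzymes of the endoplasmic reticulum (ER) that the transcription factors ATF6 and XBP1 drive in the unfolded protein response: Hspa5, Hsp90b1, Calr, Canx, Pdia3, Pdia4, Pdia6, Dnajb9, Herpud1 and Sdf2l1. They were taken from a list of names, drawn up with earlier results of these data known, and all 10 were among the 16450 genes tested. Their RNA was measured in brown adipose tissue (BAT) of mice lacking ATF4 in brown adipocytes and of WT mice after 3 days of cold. Log2 fold changes between genotypes were between -0.19 and 0.16, with a 95% confidence interval across 0 for each gene, and on CPM the libraries of the genotypes overlapped for each. None of the 10 passed an adjusted p of 0.05 with edgeR, which 0.00608% of all genes did and the deleted Atf4 did not, so that count says little about these genes. The levels differed between mice of the same genotype, and most of the 10 genes followed the same order of mice.

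Proteins that are secreted or inserted into membranes fold in the ER, where chaperones hold them, protein disulphide isomerases form their disulphide bonds, and a degradation machinery removes those that fail. When unfolded proteins accumulate, the sensors IRE1, ATF6 and PERK respond. IRE1 splices the messenger of XBP1, and ATF6 is cut by Golgi proteases, and both of the resulting factors raise the transcription of chaperone genes. PERK phosphorylates eIF2α, which favours translation of ATF4, the factor deleted here, whose targets include amino acid synthesis and stress genes. BAT produces heat through UCP1, and its adipocytes remodel their mitochondria and lipid stores in the cold.

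ATF4 BKO mice carried floxed ATF4 alleles (ATF4 fl/fl) and the Ucp1-Cre transgene, and WT mice were ATF4 fl/fl littermates without Cre, so both genotypes carried the floxed allele. All were on the C57Bl/6J background, labelled male, 10 to 12 weeks old, fed ad libitum, housed at 30 °C for 7 days and then moved to 4 °C for 3 days. RNA-seq libraries came from 3 ATF4 BKO mice, written BKO1 to BKO3 below, and 2 WT mice, written WT1 and WT2. Cre was driven by the Ucp1 promoter and RNA came from whole tissue, so cells of BAT that do not express Ucp1 kept ATF4, and no library of mice kept warm was analysed here. In whole tissue, fewer cells of a type and less RNA per cell cannot be told apart.

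Total estimated counts ranged from 24698337 to 32452751 per library. Atf4, the targeted gene, was at 32.6, 52.6 and 23.5 CPM (counts scaled to the same library size) in BKO1, BKO2 and BKO3 and at 286 and 226 CPM in WT1 and WT2, a log2 fold change of -2.82 (SE 0.34, 95% confidence interval -3.65 to -1.99). The adjusted p was 0.671 with edgeR's quasi-likelihood test, over all 16450 genes, and 9.72e-12 with DESeq2. BKO1 held 4598 counts of Xist, the RNA of the inactive X chromosome, against at most 7 in any other library, which goes against its label of male. The medians that the results rest on are therefore also given without BKO1. All 10 brown adipocyte markers were detected in every library, and their summed level was between 13475 and 17486 CPM. Skeletal muscle markers summed to between 39.5 and 53.7 CPM in the BKO libraries, to 132 CPM in WT1 and to 2429 CPM in WT2, with Tnnt3 and Pvalb at 0 in BKO3. Muscle markers were thus lower in every BKO library than in both WT libraries when summed, and highest in WT2, and their part in the results below cannot be told apart from that of genotype.

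The promoters of these genes are shown first, because they can be searched for the DNA letters through which ATF6 and XBP1 are known to act. The ER stress response element (ERSE) joins a CCAAT box, bound by NF-Y, to the letters CCACG, bound by ATF6, with 9 bases of any kind between them. ERSE-II holds ATTGG, which is CCAAT read on the other strand, and CCACG with 1 base of any kind between them. Both strands of the 250 bases before each RefSeq gene start (build GRCm38.p6) were searched, and all 10 genes were found in that table. The ERSE occurred in 5 of the 10 genes (Hspa5, Hsp90b1, Calr, Canx and Pdia6), and in 0.113% of all 32851 promoters in the table. ERSE-II occurred in Herpud1 alone of the 10 genes, and in 0.0304% of all promoters. The 10 genes were listed as ones that ATF6 and XBP1 drive, so these shares describe the list and carry no test. Pdia3, Pdia4, Dnajb9 and Sdf2l1 held neither in this window. The windows of Pdia3 and Dnajb9 lay wholly within annotated GENCODE exons (250 of 250 bases, exons of any gene on either strand). Each site is printed 5′ to 3′ on the strand that carries the motif, with the bases that the motif fixes in capitals.

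Hspa5, chr2:34772025-34772043: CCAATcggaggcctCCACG
Hsp90b1, chr10:86705638-86705656: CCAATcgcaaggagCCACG
Hsp90b1, chr10:86705533-86705551: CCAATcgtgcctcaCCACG
Calr, chr8:84847075-84847093: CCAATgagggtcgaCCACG
Canx, chr11:50325800-50325818: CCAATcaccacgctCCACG
Pdia6, chr12:17266491-17266509: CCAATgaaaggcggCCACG
Herpud1, chr8:94386377-94386387: ATTGGgCCACG

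The outer letters are identical in the 6 ERSE sites because the search required them, and the 9 bases between were free to differ. The sites lay between 42 and 212 bases before the RefSeq start, nearest in Hspa5 and Herpud1 and farthest in Hsp90b1, which carried a pair of them in opposite orientation. The Hspa5 site lies after the GENCODE start of that gene (chr2:34771970), which stands before its RefSeq start. The short element CCACG alone was found in 8 of the 10 promoters, against 28.3% of all, and CCAAT alone in 10 of 10, against 33.9% of all, and the sites above hold both. Neither the UPRE core TGACGTGG, which XBP1 binds (0.563% of all promoters), nor the cAMP response element TGACGTCA (1.55%) occurred in the 10 windows. The composite letters TGATGCAA, which ATF4 binds with a C/EBP partner, occurred in the Herpud1 window alone of the 10, against 0.792% of all promoters.

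Herpud1 is the member whose window holds both an ERSE-II and the letters of an ATF4 site, and Canx has an ERSE in a window free of annotated exons, so their 250 bases are printed in full, 5′ to 3′ on the strand of the gene. Capitals mark the ERSE-II and, nearer the 5′ end and read on the other strand, TGATGCAA in Herpud1 (plus strand), and the ERSE in Canx (minus strand).

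Herpud1, chr8:94386179-94386428: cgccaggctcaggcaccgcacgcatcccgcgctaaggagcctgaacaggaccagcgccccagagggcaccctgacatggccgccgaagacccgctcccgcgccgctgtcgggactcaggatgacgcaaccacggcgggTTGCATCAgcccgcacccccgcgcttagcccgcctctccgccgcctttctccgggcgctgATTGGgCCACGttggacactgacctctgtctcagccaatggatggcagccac
Canx, chr11:50325674-50325923: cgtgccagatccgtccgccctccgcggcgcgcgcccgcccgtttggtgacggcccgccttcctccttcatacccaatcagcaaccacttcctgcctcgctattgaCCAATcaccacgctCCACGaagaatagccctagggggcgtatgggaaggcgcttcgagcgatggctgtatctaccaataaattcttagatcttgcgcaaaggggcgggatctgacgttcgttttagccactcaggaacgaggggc

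A match of letters is a description of the window, and binding was not measured in these data.

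By TPM, which scales for transcript length and so lets genes be set beside each other, the 10 genes spanned a wide range. Calr, the soluble lectin chaperone that holds calcium, stood highest, with 251 to 380 TPM over the 5 libraries and 403 of the 16450 genes above it by median. Hspa5, which encodes BiP, the main HSP70 of the ER, followed at 149 to 229 TPM, and Hsp90b1 (GRP94, the HSP90 of the ER) at 93.1 to 165 TPM. Canx, the membrane-bound lectin partner of calreticulin, had 82.6 to 121 TPM, and Pdia3 (ERp57, the disulphide isomerase that works with both lectins) had 73.0 to 130 TPM. Herpud1, a membrane protein of the degradation machinery, had 42.3 to 89.5 TPM, and Pdia6, a disulphide isomerase that associates with BiP, had 38.6 to 75.9 TPM. Pdia4 (ERp72, another isomerase) at 14.8 to 27.7 TPM, Dnajb9 (ERdj4, a J-protein partner of BiP) at 13.6 to 25.6 TPM and Sdf2l1, a component of chaperone complexes, at 8.24 to 16.0 TPM were the lowest.

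In this order by median, the higher gene of each neighbouring pair was the higher in all 5 libraries, except Canx over Pdia3 and Herpud1 over Pdia6, each in 3 of 5. The ranges over libraries stayed apart only between Calr and Hspa5 and between Pdia6 and Pdia4, while those of the other 7 neighbouring pairs overlapped. Together the 10 genes made up between 0.138% and 0.207% of the estimated counts that were assigned to annotated genes in a library.

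**Figure D1:**
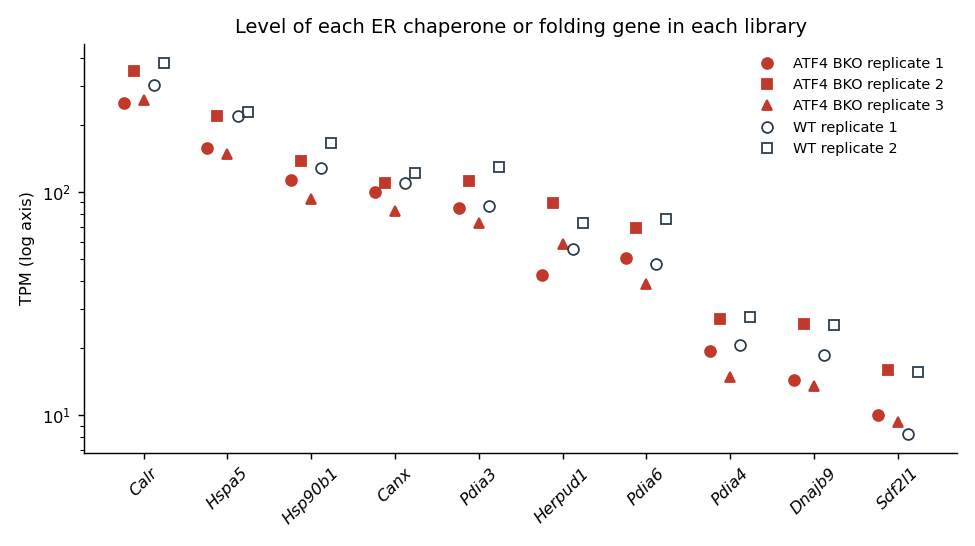
Level of each of the 10 genes in TPM (log axis) in each of the 5 libraries, with filled red symbols for ATF4 BKO, open dark symbols for WT and the symbol shape for the replicate. For Calr the points lie between 251 and 380 TPM, for Sdf2l1 between 8.24 and 16.0 TPM, and on this scale the red and dark points mix for every gene but Canx.

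Among the soluble chaperones, Hspa5 was at 356, 442 and 333 CPM in BKO1, BKO2 and BKO3 and at 423.0 and 425.5 CPM in WT1 and WT2. BKO2 was the highest library and BKO3 the lowest, with the WT pair close together between them. The mean was 377 ± 57.1 CPM in BKO (SD, n = 3) and 424 ± 1.72 CPM in WT (SD, n = 2), a log2 fold change of -0.17 (SE 0.17, 95% confidence interval -0.58 to 0.24, adjusted p = 0.942 with edgeR). In linear terms the interval reached from 0.669 to 1.18 times the WT level, and no other of the 10 genes had WT libraries so close to each other.

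Hsp90b1 was at 269, 301 and 214 CPM in BKO1, BKO2 and BKO3 and at 260 and 337 CPM in the WT libraries. WT2 was highest and BKO3 lowest, and the genotypes overlapped. The log2 fold change was -0.19 (SE 0.20, 95% confidence interval -0.68 to 0.30, adjusted p = 0.942), and it moved to -0.36 without WT1 and -0.0080 without WT2. Of its 31-base words, 12.3% also occur in other genes, chiefly the overlapping transcript 1810014B01Rik, so its counts could have been split.

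Among the lectin chaperones, Calr was at 356, 420 and 347 CPM in the BKO libraries and at 351 and 433 CPM in WT1 and WT2. Here WT2 and BKO2 were high and the other 3 libraries lay within 10 CPM of each other. The log2 fold change was -0.068 (SE 0.17, 95% confidence interval -0.48 to 0.34, adjusted p = 0.976). Canx was at 259, 243 and 205 CPM in BKO1, BKO2 and BKO3 and at 227 and 258 CPM in WT1 and WT2. It was the sole gene of the 10 that was highest in BKO1, and its log2 fold change was -0.040 (SE 0.16, 95% confidence interval -0.42 to 0.34, adjusted p = 0.981), the narrowest interval of the group.

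Among the disulphide isomerases, Pdia3 was at 170, 186 and 139 CPM in the BKO libraries and at 141 and 205 CPM in WT1 and WT2, with WT1 near the lowest BKO library and WT2 above all of them. Pdia6 was at 94.5, 108 and 67.3 CPM in the BKO libraries and at 75.5 and 113 CPM in the WT libraries. Pdia4 was at 41.0, 50.3 and 30.4 CPM in the BKO libraries and at 37.5 and 47.9 CPM in the WT libraries. All 3 isomerases were lowest in BKO3 and higher in WT2 than in WT1. Their log2 fold changes were -0.067 (SE 0.21) for Pdia3, -0.071 (SE 0.26) for Pdia6 and -0.075 (SE 0.24) for Pdia4, each with an adjusted p of 0.980.

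Of the partners of BiP and the degradation machinery, Dnajb9 was at 31.3, 47.5 and 28.7 CPM in BKO1, BKO2 and BKO3 and at 34.0 and 45.3 CPM in WT1 and WT2. BKO2 and WT2 were again the high libraries, and the log2 fold change was -0.15 (SE 0.26, adjusted p = 0.965). Of its 31-base words, 10.8% also occur in other genes, chiefly Gm6568. Sdf2l1 was at 8.8, 12.3 and 7.9 CPM in the BKO libraries and at 6.17 and 11.2 CPM in the WT libraries. It was lowest in WT1 and had the widest interval of the group, with a log2 fold change of 0.16 (SE 0.33, 95% confidence interval -0.64 to 0.96, adjusted p = 0.973).

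Herpud1 was the sole gene of the 10 with its lowest level in BKO1. It was at 57.8, 98.5 and 76.2 CPM in BKO1, BKO2 and BKO3 and at 61.9 and 83.1 CPM in WT1 and WT2, so BKO2 and WT2 were its high libraries. The log2 fold change was 0.096 (SE 0.25, 95% confidence interval -0.52 to 0.72, adjusted p = 0.977). The transcript Herpud1-205 took 60.8%, 78.5% and 85.6% of the gene's counts in BKO1, BKO2 and BKO3 and 75.9% and 72.1% in WT1 and WT2. Herpud1-201 took 29.8%, 7.28% and 4.12% in BKO1, BKO2 and BKO3 and 12.0% and 20.1% in WT1 and WT2, so the genotypes overlapped for both transcripts, and BKO1 stood at one end of each range.

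Across the 10 genes, 0 passed an adjusted p of 0.05 with edgeR and 0 with DESeq2, where 0.00608% and 0.736% of all 16450 genes did. At an unadjusted p under 0.05 with edgeR, 0 of the 10 passed, against 5.23% of all genes. For 0 of the 10 were the CPM ranges of the genotypes apart, against 19.6% of all genes. With 10 genes these counts are a description, and the intervals carry the precision. The widest interval, that of Sdf2l1, reached 1.95 times the WT level, and the lowest lower bound, that of Dnajb9, 0.582 times, so changes within the intervals could not be told from none with 5 libraries. The p-values measure only the spread between these libraries.

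The estimate was below 0 for 8 of the 10 genes and above 0 for Herpud1 and Sdf2l1, with a median log2 fold change of -0.069, beside 0.0077 over all genes tested. Of all 16450 genes, 8025 had an estimate below 0. Without BKO1 the median was -0.086, again with 8 of 10 below 0. The median was -0.22 without WT1 and 0.085 without WT2, so the sign rested on single libraries. On log2(TPM + 1), 9 of the 10 were below 0, as were 71.4% of all genes tested. The median of the 10 was -0.26, on a scale that put the median over the genes tested at -0.12. On TPM, Canx was at 99.9, 109.9 and 82.6 in the BKO libraries and at 110.0 and 121.3 in the WT libraries, the sole case of the 10 in which the genotypes did not overlap.

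**Figure D2:**
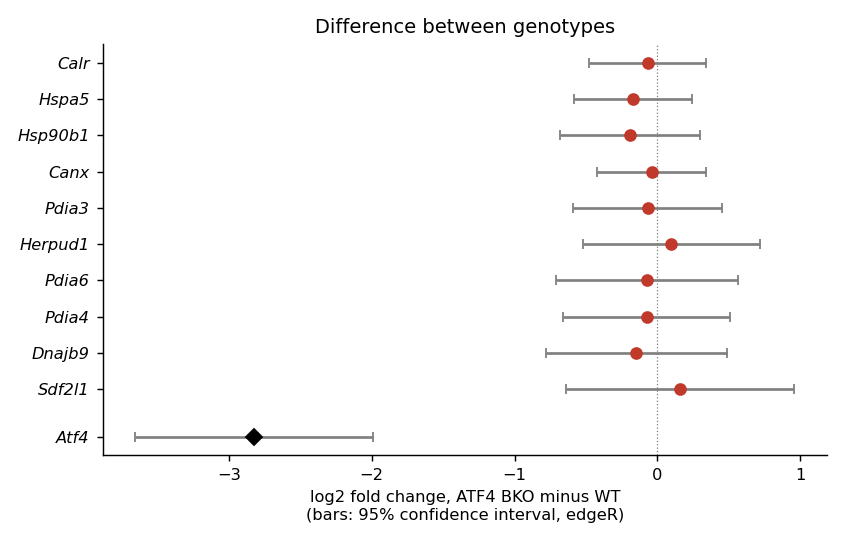
Log2 fold change (ATF4 BKO minus WT) of the 10 genes and of Atf4, with bars for the 95% confidence interval of edgeR's quasi-likelihood fit over 3 ATF4 BKO and 2 WT libraries. Every interval of the 10 genes crosses 0, and that of Atf4, from -3.65 to -1.99, lies wholly below it.

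The spread within a genotype was set beside the difference between genotypes. For 9 of the 10 genes both the WT2-WT1 difference and the range over the BKO libraries exceeded the fitted difference between genotypes, Hspa5 being the exception. That share was not computed over all genes. Their median absolute log2 fold change was 0.19, below their median BKO range of 0.45. WT2 was above WT1 in 10 of 10 genes, by a log2 difference of 0.0083 (Hspa5) to 0.85 (Sdf2l1) with a median of 0.40, where 50.4% of all genes had that order and their median difference was 0.0028. The range over the BKO libraries was between 0.27 and 0.77 on the log2 scale with a median of 0.56, beside 0.45 over all genes.

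BKO2 was above both other BKO libraries in 9 of 10 genes, Canx being the exception, where 43.5% of all genes had that order. BKO3 was below both in 9 of 10, Herpud1 being the exception, against 32.7% of all genes. BKO2 above the other BKO libraries and WT2 above WT1 held together for 9 of the 10 genes and for 23.3% of all genes. These orders were picked after the values were seen and the 10 genes share the same 5 libraries, so the counts carry no test.

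As a deviation from each gene's mean log2 CPM over the 5 libraries, the median of the 10 genes was -0.025 in BKO1, 0.21 in BKO2 and -0.25 in BKO3, and -0.12 in WT1 and 0.27 in WT2. All 10 genes were above their own mean in BKO2 and in WT2. In BKO3 that was so for Herpud1 alone and in WT1 for Hspa5 alone. The median over all genes was between -0.018 and 0.037 in every library.

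**Figure D3:**
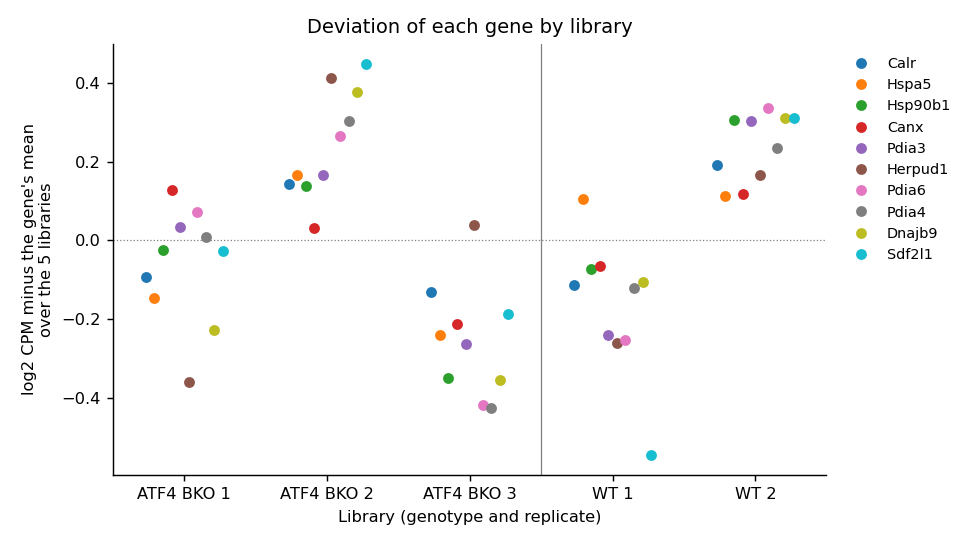
Deviation of each of the 10 genes from its own mean log2 CPM in each library, one colour per gene, with a vertical line between the genotypes. All points lie above 0 in BKO2 and WT2, and in BKO3 and WT1 all but 1 lie below it.

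Sample names carry a prefix whose meaning is not given, shared by BKO1, BKO2 and WT1 on one side and by BKO3 and WT2 on the other. Within the first prefix the mean of the BKO libraries was above WT1 in 9 of 10 genes, with a median log2 difference of 0.23. Within the second, BKO3 was below WT2 in 10 of 10 genes, with a median of -0.53. The pooled median near 0 therefore joins opposite differences. Each prefix holds 1 WT library, and the second also holds only 1 BKO library. With the prefix as a block in edgeR, the median log2 fold change was -0.078 and 0 of the 10 signs turned. The medians over all genes were -0.0040 and -0.032 within these prefixes.

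Markers of other cells of BAT also differed between mice of a genotype. Macrophage markers, all 10 of them detected in every library, summed to 839, 1395 and 499 CPM in BKO1, BKO2 and BKO3 and to 204 and 1156 CPM in WT1 and WT2, with BKO2 and WT2 highest, as for the ER chaperones. The summed muscle markers given above were also highest within their genotype in BKO2 (53.7 CPM) and WT2 (2429 CPM). Fibroblast markers, all 7 detected, summed to 2470, 2280 and 735 CPM in the BKO libraries and to 873 and 1651 CPM in the WT libraries, with BKO3 and WT1 lowest. Endothelial markers, all 6 detected, lay between 746 and 1188 CPM and were highest in BKO3. B and plasma cell markers, which include secretory cells rich in ER, summed to no more than 20.3 CPM in any library, with Tnfrsf17 at 0 in BKO1 and BKO3 and Mzb1 at 0 in WT1. The summed level of the 10 ER genes was 1644, 1907 and 1449 CPM in the BKO libraries and 1617 and 1960 CPM in the WT libraries. The part of macrophages and fibroblasts in that difference was not tested.

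**Figure D4:**
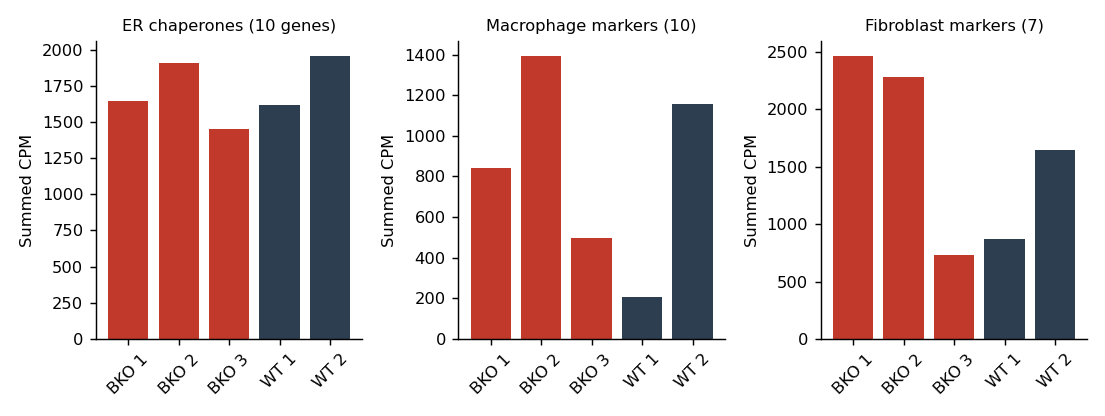
Summed CPM per library of the 10 ER chaperone and folding genes, of 10 macrophage markers and of 7 fibroblast markers, each bar 1 library (red ATF4 BKO, dark WT) on an axis from 0. BKO2 and WT2 are the highest libraries of their genotype for the ER genes and the macrophage markers, and for the fibroblast markers BKO1 and BKO2 are the highest.

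Of the sensors and transcription factors upstream of these genes, 10 of 10 were tested. With edgeR 0 passed the adjusted threshold, which 0.00608% of all genes did. Their median log2 fold change was -0.11 (-0.076 without BKO1) for the 10 sensors and factors. Atf6 was at 67.0, 86.8 and 77.0 CPM in BKO1, BKO2 and BKO3 and at 124 and 89.3 CPM in WT1 and WT2, so every BKO library was below both WT libraries, which held for 10.6% of all genes. Its log2 fold change was -0.47 (SE 0.19, unadjusted p = 0.0474, adjusted p = 0.911 with edgeR), and -0.20 without WT1. Ern1, which encodes IRE1, was at -0.19 and Eif2ak3, which encodes PERK, at -0.17 on the log2 scale. All BKO libraries were below both WT libraries for Ern1, as in 10.6% of all genes, but BKO2 and WT2 were close at 19.0 and 19.1 CPM. For Eif2ak3, BKO2 and WT2 were level at 22.7 CPM and on TPM the genotypes overlapped. Xbp1 was at 49.9, 63.5 and 53.8 CPM in the BKO libraries and at 61.5 and 56.0 CPM in the WT libraries, a log2 fold change of -0.075 (SE 0.15). These counts per gene do not separate spliced from unspliced Xbp1 RNA.

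The Golgi proteases that cut ATF6 had log2 fold changes of -0.042 (Mbtps1) and -0.32 (Mbtps2), and Atf6b, the relative of Atf6, -0.042. Of the related membrane-bound factors, Creb3 and Creb3l2 were both at 0.23 and Creb3l1 at -0.14. Creb3l2 lay above both WT libraries in every BKO library, at 30.1, 29.6 and 29.9 CPM against 26.2 and 24.8 CPM, an order that 8.95% of all genes had, but on TPM the genotypes overlapped.

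The wider machinery of the ER was given by 5 further lists with 73 genes tested. Among these 73 genes 0 passed the adjusted threshold with edgeR or DESeq2, where 0.00608% and 0.736% of all genes did. At an unadjusted p under 0.05 with edgeR, 2 were lower and 0 higher, where 3.42% of all genes were lower and 1.81% higher. The median log2 fold change of the 73 was 0.0022 (-0.011 without BKO1). For 13 of the 73 the genotypes did not overlap, 7 lower and 6 higher, a share of 17.8% beside the 19.6% of all genes. The median was 0.032 for 10 co-chaperones and partners of BiP, 0.088 for 14 other disulphide isomerases and oxidases, -0.015 for 13 genes of glycosylation and the calnexin cycle, -0.028 for 20 genes of ER-associated degradation and 0.0040 for 16 genes of translocation and signal peptide cleavage. On log2(TPM + 1), 65 of the 73 (89.0%) were below 0, as were 71.4% of all genes tested, with medians of -0.15 and -0.12.

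The lowest estimate among them was that of Ero1l, the oxidase that recharges protein disulphide isomerases. It was at 41.6, 37.9 and 40.0 CPM in BKO1, BKO2 and BKO3 and at 119 and 56.9 CPM in WT1 and WT2, with all BKO libraries below both WT libraries. The log2 fold change was -1.14 (SE 0.29, adjusted p = 0.771 with edgeR and 0.0837 with DESeq2), and -0.50 without WT1, the library in which it was highest. Its paralogue Ero1lb was at 14.2, 17.4 and 15.0 CPM in the BKO libraries and at 9.40 and 13.3 CPM in the WT libraries, a log2 fold change of 0.45. Qsox1, a sulphydryl oxidase, had the highest estimate at 0.57, with BKO2 at 62.8 CPM and the other 4 libraries between 21.8 and 33.8 CPM.

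Stt3b, a catalytic subunit of the oligosaccharyltransferase, was at 130, 120 and 113 CPM in the BKO libraries and at 161 and 145 CPM in the WT libraries, a log2 fold change of -0.34 (SE 0.13, unadjusted p = 0.0380, adjusted p = 0.911). Hyou1, the large HSP70 that exchanges nucleotide on BiP, was at -0.18 and Cnpy2 at 0.22, the ends of the co-chaperone list together with Manf at -0.12 and Dnajc3 at 0.098. Of the degradation genes, the mannosidase-like Edem3 and Edem1 were lowest at -0.25 and -0.18 and Derl1 and Os9 highest at 0.22 and 0.20. The ends of the other lists were Txndc12 at -0.17, Uggt1, the folding sensor of the calnexin cycle, at -0.17, Mlec at 0.11 and Rpn1 at 0.15, and in translocation Srpr at -0.24, Srprb at -0.19, Sec11c at 0.15 and Tram1 at 0.35. None of these passed the adjusted threshold.

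The order of mice seen in the 10 genes, BKO2 above the other BKO libraries together with WT2 above WT1, was found in 2 of 10 co-chaperones, 5 of 14 isomerases and oxidases, 5 of 13 glycosylation genes, 3 of 20 degradation genes and 4 of 16 translocation genes. It was found in 2 of 10 sensors, 3 of 10 genes of the PERK-ATF4 arm and 1 of 14 cytosolic chaperones, beside the 23.3% of all genes given above.

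Genes of the PERK-ATF4 arm are the ones under ATF4 itself. Of 10 tested, 6 were lower and 0 higher at an unadjusted p under 0.05, where 3.42% of all genes were lower and 1.81% higher, 7 lay below both WT libraries in every BKO library (10.6% of all genes did), and the median log2 fold change was -0.94 (-0.74 without BKO1 and -0.62 without WT1). With edgeR 0 passed the adjusted threshold, which 0.00608% of all genes did. With DESeq2 Chac1, Trib3 and Asns passed, where 0.608% of all genes were called lower. Chac1, a glutathione-degrading enzyme, was at 0.972, 1.17 and 0.572 CPM in the BKO libraries and at 5.35 and 4.48 CPM in the WT libraries, a log2 fold change of -2.44 (SE 0.36, adjusted p = 0.671 with edgeR). Trib3, a pseudokinase, was at 7.11, 15.9 and 7.27 CPM in the BKO libraries and at 53.6 and 44.0 CPM in the WT libraries, a log2 fold change of -2.27 (SE 0.38, adjusted p = 0.671 with edgeR). At the other end were Ddit4 at 0.92 and Stc2 at 0.23. The difference between this list and the ER chaperones was not tested.

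Cytosolic heat shock chaperones, the counterpart outside the ER, had a median log2 fold change of -0.25 over 14 genes, -0.31 without BKO1 and -0.055 without WT1. None passed the adjusted threshold with edgeR, which 0.00608% of all genes did, and 0 passed an unadjusted p under 0.05 (5.23% of all genes did). Of the 14, 3 lay below both WT libraries in every BKO library, as did 10.6% of all genes. Hspb1, a small heat shock protein, was lowest at -0.74, with WT1 at 254 CPM and the other 4 libraries between 93.2 and 121 CPM. Hsp90aa1 at -0.67, Hspa1b at 0.024 and Dnaja1 at 0.19 were the other ends of that list.

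**Figure D5:**
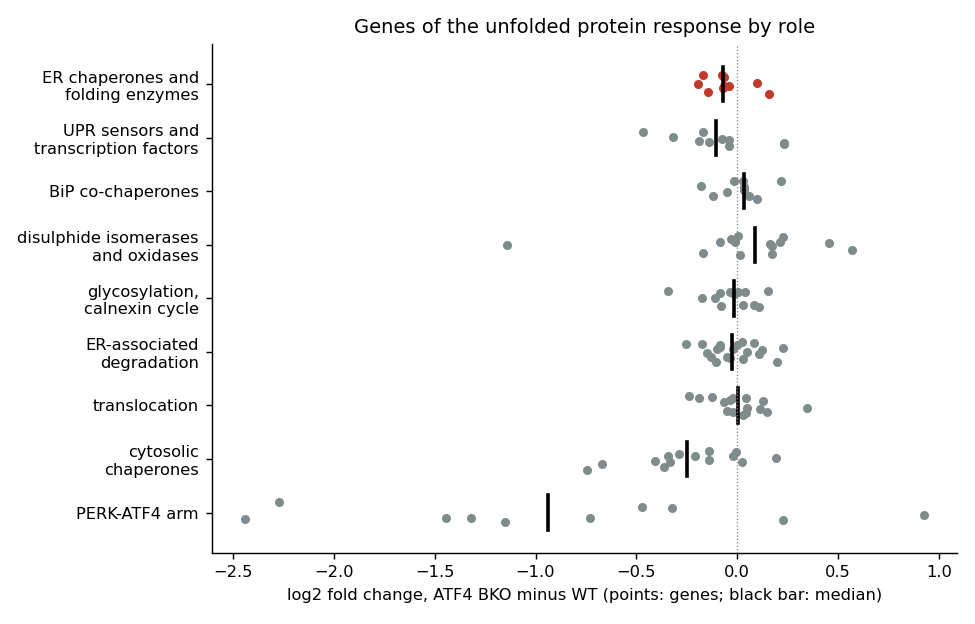
Log2 fold change (ATF4 BKO minus WT) of each tested gene by role, with the 10 ER chaperones and folding enzymes in red, other lists in grey and black bars for medians. The red points lie between -0.19 and 0.16 around a median of -0.069, and the PERK-ATF4 arm reaches -2.44 with a median of -0.94.

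The genes stand, in GENCODE M21 on GRCm38, at chr8:84841850-84846934 (Calr), chr2:34771970-34777547 (Hspa5), chr10:86690209-86705509 (Hsp90b1), chr11:50293961-50325673 (Canx) and chr2:121413775-121438687 (Pdia3). The others are at chr8:94386438-94395377 (Herpud1), chr12:17266545-17284770 (Pdia6), chr6:47796141-47813430 (Pdia4), chr12:44205559-44210326 (Dnajb9) and chr16:17130138-17132383 (Sdf2l1). Hsp90b1, Pdia3, Herpud1, Pdia6 and Dnajb9 overlap a gene on the other strand (1810014B01Rik, Catsper2, Gm15890, Atp6v1c2 and Mir5627), and whether strand was used in counting is not given in the sources used here. Of the counts of Calr, between 20.4% and 23.8% in each library were assigned to Calr-204, a transcript annotated with a retained intron, with overlapping genotypes.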

How the data were processed

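BAT RNA of 3 ATF4 BKO and 2 WT mice was made into stranded mRNA libraries and sequenced. The authors assigned reads to transcripts with Kallisto (version 0.45.0, mouse build mm10 in the submitters' processing notes) and deposited, per mouse, estimated counts and TPM for 141450 transcripts. The deposited estimated counts are not normalized between mice, and the deposited TPM values are scaled for transcript length and to the same total in each mouse.

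Estimated counts and TPM were summed per gene with GENCODE M21 (138191 transcripts matched, in 52022 genes), and counts were rounded. The 3259 transcripts without a match held 1.16% to 1.29% of the counts. A gene was tested if 2 or more libraries held 10 or more of its counts, with edgeR 4.0.16 in R 4.3.3 (TMM, quasi-likelihood, Benjamini-Hochberg over all genes, threshold 0.05). CPM values use TMM-scaled library sizes. DESeq2 1.42.0, the study's tool, and limma 3.58.1 on log2(TPM + 1) were alternatives, with other scalings and filters, blocks, a muscle covariate and each library left out. The fits were run on simulated counts whose known changes were larger than any estimate of the 10 genes. That run therefore does not cover changes of their size.

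The members, lists and markers were chosen with earlier results of these data known. Named genes are the 10 members, all sensors, and of each other list the 2 lowest and 2 highest log2 fold changes. Genes named beyond these, such as Asns and the overlapping or word-sharing genes, were chosen after their values were seen. Ddit3 was left out, since 2 gene identifiers carry that name.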

Additional observations from a re-analysis of the deposited data

How the results depend on the processing

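With 2 WT libraries, an exact permutation test of a single gene cannot go below p = 0.1 (one-sided). Over 15 alternatives and 10 genes (150 estimates), 0 passed the threshold and 28 had another direction; the lowest adjusted p was 0.181 (Sdf2l1, muscle covariate). Atf4 passed with DESeq2 (-2.83) and without the count filter (-2.82), and lay between -3.18 and -2.58 without single libraries. Over all genes, calls numbered 1 with edgeR, 121 with DESeq2, 8 without the count filter, 0 and 2 with limma on log2(TPM + 1) and log2(TPM + 0.1), 0 with either block, 217 with the muscle covariate, and 0 to 23 without single libraries, the 23 without WT1. With the mean muscle marker level as a covariate, which itself separates the genotypes, the median of the 10 genes was 0.60. In that fit 1 of them had an unadjusted p under 0.05 with edgeR, and the share over all genes was not computed. The sign turned for Calr (0.36), Hspa5 (0.053), Hsp90b1 (0.37), Canx (0.20), Pdia3 (0.63), Pdia6 (0.77), Pdia4 (0.58) and Dnajb9 (0.62), and the cause was not tested. The fit with the replicate number as a block left out BKO3, since no WT library carries its number. In it the sign turned for Canx (0.054), Pdia3 (0.070), Pdia6 (0.13) and Pdia4 (0.10), and the median was 0.062. Without BKO3 and with no block, the sign turned for the same genes (0.052, 0.046, 0.10 and 0.098), and the median was 0.049. The deviations of same-numbered libraries from their genotype means correlated at 0.047 and 0.20 over 2 pairs. With 2 WT libraries the WT deviations mirror each other, so these correlations cannot show whether same-numbered mice were paired. Herpud1 was at -0.070 and -0.071 on log2(TPM + 1) and log2(TPM + 0.1). On TPM, 1 gene (Canx) did not overlap between genotypes. Leaving out single libraries gave 0 to 4 genes that did not overlap (4 without WT1, 2 without BKO2). The share over all genes was not computed for TPM or with libraries left out, and ranges lie apart more easily with fewer libraries. Without single libraries the median was between -0.22 and 0.085. The ranges were -0.20 to 0.076 for Calr, -0.28 to -0.087 for Hspa5, -0.36 to -0.0080 for Hsp90b1, -0.12 to 0.052 for Canx, -0.30 to 0.21 for Pdia3, -0.095 to 0.31 for Herpud1, -0.33 to 0.23 for Pdia6, -0.24 to 0.098 for Pdia4, -0.39 to 0.056 for Dnajb9 and -0.20 to 0.63 for Sdf2l1.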
